A study of Homo sapiens with 4 samples.

Results

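The transcripts of 10 genes linked to protein ADP-ribosylation were followed in A549, a human cell line grown from a lung carcinoma of epithelial type, after forced expression of SAMD9, an interferon-inducible antiviral protein. They are PARP8, PARP9, PARP10, PARP11, PARP12, PARP14, ZC3HAV1 (the zinc finger antiviral protein, or PARP13) and DTX3L, the ubiquitin ligase that partners PARP9, with PARP1 and PARP2 as the DNA repair contrast. They were chosen as a family by role with their values in this contrast already known, taken by symbol from 58812 Ensembl genes listed in the files. All 10 passed the filter on low counts that left 19814 genes for testing. Total RNA was sequenced 24 hr after transfection of otherwise wild type cells with 1 µg of plasmid, either SAMD9-Myc-DDK, which encodes SAMD9 with a tag (2 libraries), or the empty plasmid pCMV6-Entry (2 libraries). Nothing in the labels tells whether the 2 libraries of a group came from different cultures, and p-values therefore reflect only how far these libraries differ, which may be technical.

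PARP enzymes move ADP-ribose from NAD+ onto proteins or nucleic acids. PARP1 and PARP2 build chains of it at DNA breaks, whereas most other family members add single units, and ZC3HAV1 and PARP9 have lost or diverged residues of the catalytic site. Several of the single-unit enzymes, DTX3L and ZC3HAV1 are known interferon-stimulated genes of epithelial cells, and some viruses carry macrodomains that strip ADP-ribose from proteins.

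SAMD9 itself had 220123 and 184350 counts in the SAMD9 libraries, against 444 and 400 counts in the empty vector libraries. On the log2 scale it rose by 8.88 (standard error, SE, 0.08; edgeR adjusted p = 2.2e-26). Plasmid and endogenous SAMD9 transcripts are pooled in these counts. Library totals were 39670083 and 30750029 counts with SAMD9 and 29301854 and 31434339 with empty vector. The keratin-led list of 9 lung epithelial markers summed to 5918 and 5582 CPM (counts scaled to library size) with SAMD9 and to 4925 and 5431 CPM with empty vector, but NKX2-1, which defines lung epithelial identity, had 2 and 2 counts with SAMD9 and 6 and 4 with empty vector. Fibroblast markers (7) summed to 5.999 and 5.984 CPM with SAMD9 and 1.91 and 3.02 CPM with empty vector, with DCN at 0 throughout. Most of that sum was COL1A1, which had 194 and 160 counts with SAMD9, against 45 and 70 with empty vector (log2 fold change 1.605, SE 0.25, adjusted p = 3.6e-05). In the epithelial list CDH1 (0.89, SE 0.08, adjusted p = 5.0e-09) and KRT8 (0.40, SE 0.05, adjusted p = 9.7e-07) rose. KRT18 (0.14, SE 0.06, adjusted p = 0.085), SFTPB (0.18, SE 0.77, adjusted p = 0.91) and EPCAM (-0.20, SE 0.18, adjusted p = 0.49) did not pass. KRT19, SFTPC, SFTPA1 and NKX2-1 had too few counts to be tested. Leukocyte (6) and endothelial (5) markers summed to at most 3.21 CPM in any library. The part of these markers in the results was not tested.

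Promoters are shown because 4 of the 9 genes with a RefSeq window share a motif there, PARP9 and DTX3L through the same genomic bases. PARP10 had no window and was not examined. Each window covers 250 bases before to 50 after the annotated start (RefSeq, GRCh38.p14), written 5′ to 3′ on the gene's strand. Capitals mark GAAA, any 2 bases and GAAA again on either strand, the core of the element read by interferon-activated STAT and IRF complexes, and TTCNNNGAA, the core bound by STAT dimers, which reads the same on both strands. DTX3L is at chr3:122564088-122564387 (plus strand), PARP14 at chr3:122680589-122680888 (plus), PARP12 at chr7:140062902-140063201 (minus), ZC3HAV1 at chr7:139109671-139109970 (minus) and PARP1 at chr1:226408044-226408343 (minus).
DTX3L: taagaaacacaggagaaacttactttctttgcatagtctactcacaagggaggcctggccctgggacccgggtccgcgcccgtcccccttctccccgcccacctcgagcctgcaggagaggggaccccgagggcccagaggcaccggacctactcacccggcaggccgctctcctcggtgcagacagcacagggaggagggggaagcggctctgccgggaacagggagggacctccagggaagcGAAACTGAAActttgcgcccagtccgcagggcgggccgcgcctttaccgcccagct
PARP14: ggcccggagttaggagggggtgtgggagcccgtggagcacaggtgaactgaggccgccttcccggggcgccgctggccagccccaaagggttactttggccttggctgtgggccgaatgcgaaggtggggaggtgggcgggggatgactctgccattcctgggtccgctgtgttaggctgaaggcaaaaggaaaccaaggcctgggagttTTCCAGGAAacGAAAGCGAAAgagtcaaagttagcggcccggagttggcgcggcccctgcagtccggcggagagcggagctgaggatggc
PARP12: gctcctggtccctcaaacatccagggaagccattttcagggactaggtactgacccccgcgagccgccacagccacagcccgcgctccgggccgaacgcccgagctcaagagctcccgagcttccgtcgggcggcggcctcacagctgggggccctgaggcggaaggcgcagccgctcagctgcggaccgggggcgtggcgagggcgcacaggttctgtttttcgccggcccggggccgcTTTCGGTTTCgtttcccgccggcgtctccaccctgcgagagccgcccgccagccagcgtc
ZC3HAV1: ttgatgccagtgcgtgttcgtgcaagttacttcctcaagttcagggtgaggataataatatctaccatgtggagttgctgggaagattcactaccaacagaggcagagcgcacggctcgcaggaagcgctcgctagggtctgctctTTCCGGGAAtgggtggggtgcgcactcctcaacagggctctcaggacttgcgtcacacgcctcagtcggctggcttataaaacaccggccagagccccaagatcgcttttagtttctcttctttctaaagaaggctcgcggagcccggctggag
PARP1: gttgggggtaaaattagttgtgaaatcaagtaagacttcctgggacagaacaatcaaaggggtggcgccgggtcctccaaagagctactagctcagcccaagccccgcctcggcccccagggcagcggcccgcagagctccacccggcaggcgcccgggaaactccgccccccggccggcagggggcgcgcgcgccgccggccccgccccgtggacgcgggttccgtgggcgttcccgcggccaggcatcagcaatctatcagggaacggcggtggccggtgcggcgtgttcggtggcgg

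The DTX3L match, GAAACTGAAA, begins 6 bases before the start and spans it. A PARP9 window on the other strand overlaps the DTX3L window by 137 bases and holds the same genomic bases (chr3:122564332-122564341) as TTTCAGTTTC, 41 bases before the PARP9 start. PARP14 holds GAAAGCGAAA 29 bases before its start, with TTCCAGGAA 40 bases before it, and PARP12 holds TTTCGGTTTC 10 bases before its start. ZC3HAV1 has only the second motif, TTCCGGGAA, 104 bases before its start, and PARP2 has TTCCCAGAA 154 bases before. The windows of PARP1, PARP8 (3 windows) and PARP11 hold neither motif. Of 27305 genes with a RefSeq window, 4.38% hold the first motif and 9.38% the second in at least 1 window. A match is a description of letters and not evidence of binding.

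By a fitted log2 fold change of at least 1, 7 of the 10 genes were higher, beside 8.13% of all tested genes. The same 7 had each SAMD9 library above each empty vector library by more than 1 on the log2 scale. The share of all tested genes by that second measure was not computed, so nothing is read from it. Levels below are CPM after TMM normalisation, and gene spans are on GRCh38. Because the genes were chosen with this contrast in view, no test of them is given. For description, 7 of 10 passed the threshold of adjusted p below 0.05 as higher and 0 as lower, where 15.3% of all tested genes were higher, 12.2% lower and 27.5% either. Nothing is read from that count. The median log2 fold change of the 10 was 4.03, beside -0.01 over all tested genes. In bulk RNA, more transcript per cell and more cells with the transcript cannot be told apart.

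**Figure D1:**
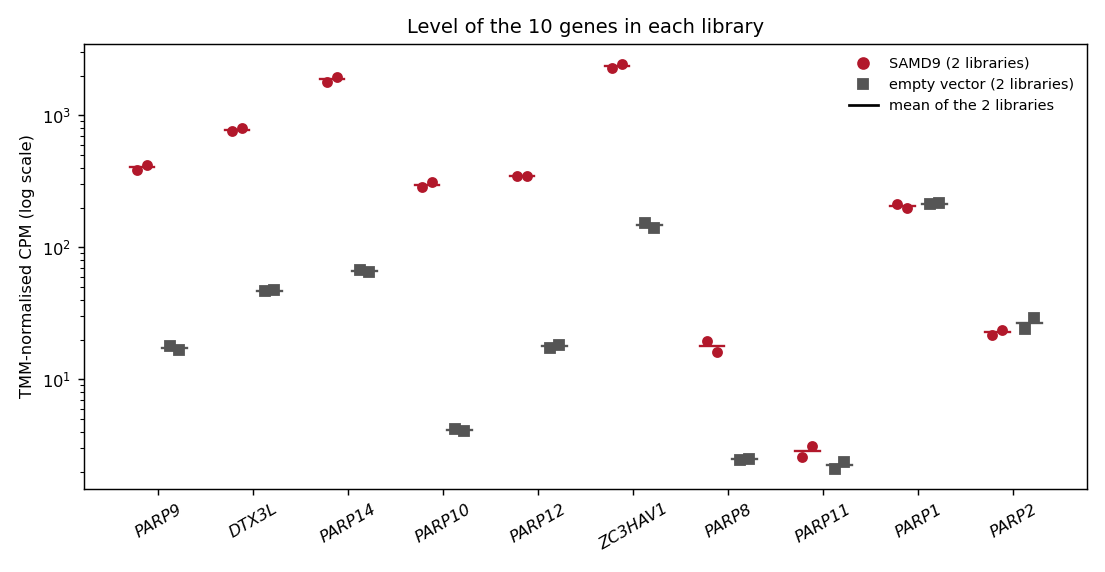
Level of each gene in TMM-normalised CPM (log scale) in 2 SAMD9 libraries (red circles) and 2 empty vector libraries (grey squares), with a line at each group's mean. PARP9, DTX3L, PARP14, PARP10, PARP12, ZC3HAV1 and PARP8 sit far above their empty vector values, whereas PARP11, PARP1 and PARP2 lie close to them.

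PARP9 and DTX3L encode a heterodimer that ADP-ribosylates and ubiquitylates proteins at damaged DNA and in interferon signalling. PARP9 (ENSG00000138496, chromosome 3, 122527924 to 122564577, minus strand) had 387 and 423 CPM with SAMD9, against 17.8 and 16.8 CPM with empty vector. Its log2 fold change was 4.55 (SE 0.08). DTX3L (ENSG00000163840, 122564238 to 122575203, plus strand) had 753 and 803 CPM with SAMD9, against 46.3 and 47.3 CPM with empty vector, a log2 fold change of 4.06 (SE 0.07). Both genes kept their libraries well apart between groups. They share 217 exonic bases on opposite strands, and the strand setting of the counting is not given in the sources used here. Per length, PARP9 stood at 0.337 and 0.346 of the DTX3L level with SAMD9 and at 0.253 and 0.233 with empty vector, so the ratio was higher in both SAMD9 libraries.

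PARP14, a large macrodomain-bearing transferase that modifies proteins of cytokine signalling, is the third gene of this chromosome 3 cluster (ENSG00000173193, 122680618 to 122730840, plus strand). It had 1798 and 1939 CPM with SAMD9, against 66.9 and 65.2 CPM with empty vector. The log2 fold change was 4.82 (SE 0.06), and 150 of the 19814 tested genes had one at least as large. Its per-length level was 1.33 and 1.35 times that of DTX3L with SAMD9 and 0.809 and 0.770 times with empty vector, so the order of the 2 genes differed between the groups.

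PARP10, a mono-ADP-ribosyltransferase on chromosome 8 (ENSG00000178685, 143977153 to 144012772, minus strand), had 10702 and 8881 counts in the SAMD9 libraries, against 131 and 135 counts in the empty vector libraries. That is 287 and 310 CPM with SAMD9 and 4.19 and 4.03 CPM with empty vector, a log2 fold change of 6.18 (SE 0.09). The fold was 72.6, the highest among the 10. PARP10 shares 324 exonic bases with GRINA on the opposite strand, which had 12273 and 10130 counts with SAMD9 and 5348 and 5896 with empty vector. Their part in the PARP10 counts was not tested.

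PARP12 and ZC3HAV1 both carry CCCH zinc fingers, and both lie on chromosome 7. PARP12 (ENSG00000059378, 140023744 to 140063721, minus strand) had 345 and 349 CPM with SAMD9, against 17.4 and 18.1 CPM with empty vector, a log2 fold change of 4.29 (SE 0.07). ZC3HAV1 (ENSG00000105939, 139043520 to 139109719, minus strand), which binds CpG-rich viral RNA, had 2292 and 2436 CPM with SAMD9, against 153 and 140 CPM with empty vector, a log2 fold change of 4.01 (SE 0.06). Gene counts do not separate its long and short isoforms. It was the most abundant of the 10 per length with SAMD9, at 287 ± 12.4 RPKM (SD, n = 2). With empty vector it stood at 17.8 ± 1.14 RPKM and ranked after PARP1. RPKM is CPM per kilobase of the listed length, which for ZC3HAV1 is 8235 bases and not its genomic span. Comparisons per length between genes rest on that listed length.

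PARP8 and PARP11 are less studied transferases and were the scarce members. PARP8 (ENSG00000151883, chromosome 5, 50665899 to 50846522) had 724 and 461 counts with SAMD9, against 77 and 83 counts with empty vector, or 19.4 and 16.1 CPM with SAMD9 and 2.46 and 2.48 CPM with empty vector. Its log2 fold change was 2.85 (SE 0.17), and its 2 SAMD9 libraries differed by 0.27 on the log2 scale. PARP11 (ENSG00000111224, chromosome 12, 3791047 to 3873448) had 96 and 89 counts with SAMD9, against 66 and 79 counts with empty vector, or 2.57 and 3.11 CPM with SAMD9 and 2.11 and 2.36 CPM with empty vector. Its log2 fold change was 0.34 (SE 0.28), with all of its levels between 2.11 and 3.11 CPM.

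PARP1 (ENSG00000143799, chromosome 1, 226360691 to 226408075), the main chain-building enzyme at DNA breaks, had 213 and 198 CPM with SAMD9, against 211 and 218 CPM with empty vector. The groups overlapped, and the log2 fold change was -0.06 (SE 0.06). PARP2 (ENSG00000129484, chromosome 14, 20343582 to 20357905) had 21.6 and 23.8 CPM with SAMD9, against 24.0 and 28.99 CPM with empty vector, a log2 fold change of -0.23 (SE 0.11). Its libraries did not overlap, as for 9 of the 10 genes and 62% of all tested genes, but the gap was 0.01 between the nearest libraries and 0.43 between the farthest on the log2 scale.

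Per length with SAMD9 the order was ZC3HAV1, PARP14, DTX3L, PARP12, PARP10, PARP9, PARP1, PARP2, PARP8 and PARP11. PARP14 followed at 178 ± 9.51 RPKM and DTX3L at 133 ± 6.0 RPKM (SD, n = 2), each neighbour apart by more than these SDs. PARP12 at 55.2 ± 0.42, PARP10 at 49.5 ± 2.72 and PARP9 at 45.3 ± 2.91 RPKM lay closer together, and the last 2 differed by less than the sum of their SDs. Within each SAMD9 library, however, PARP10 was above PARP9 (6.391% against 5.811% and 6.542% against 6.027% of the family sum given below). With empty vector the order was PARP1, ZC3HAV1, DTX3L, PARP2, PARP14, PARP12, PARP9, PARP10, PARP11 and PARP8, and PARP2 at 6.47 ± 0.854 and PARP14 at 6.29 ± 0.118 RPKM did not differ beyond their spread.

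Over the 17 genes of the human PARP family, the summed per-length level was 744 and 786 RPKM with SAMD9, against 162 and 155 RPKM with empty vector. ZC3HAV1, PARP14, PARP12, PARP10 and PARP9 together gave 80.0% and 80.8% of it with SAMD9 and 18.7% and 18.4% with empty vector. PARP1 gave 3.997% and 3.524% with SAMD9 and 18.2% and 19.6% with empty vector, at the levels given above.

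**Figure D2:**
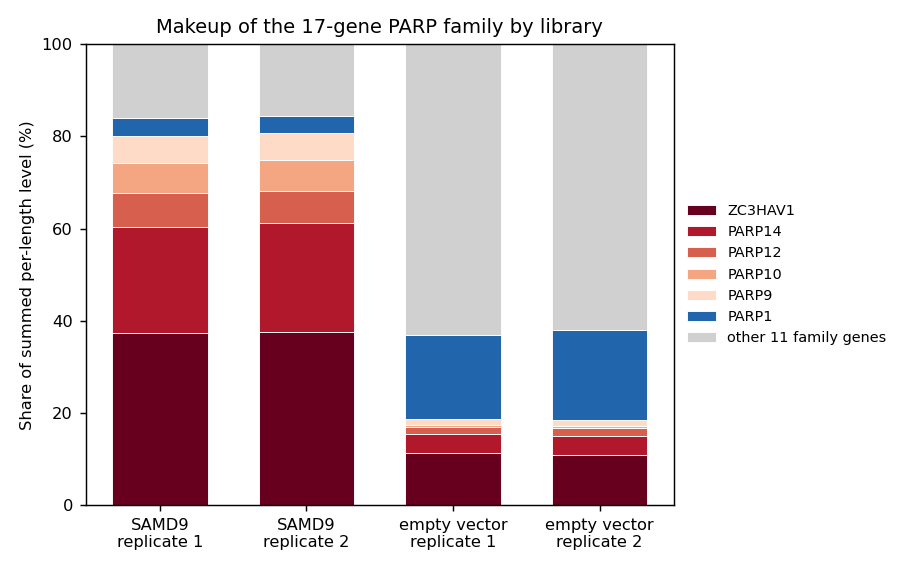
Share (%) of the summed per-length level of 17 PARP family genes in each library, SAMD9 libraries on the left. ZC3HAV1 and PARP14 fill most of the SAMD9 bars, at 37.4% and 37.6% and at 23.0% and 23.5%, whereas PARP1 and the other 11 genes fill most of the empty vector bars.

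Likeness of a gene's profile to that of PARP9 or PARP14 was the Euclidean distance between centred log2 CPM over 4 libraries among 10405 genes, and with 2 libraries a group it mostly ranks genes by fold change. Nearest to PARP9 were IFI35 (distance 0.05), APOL2 (0.08) and USP18 (0.11), and nearest to PARP14 were ISG20 (0.06), SP110 (0.06) and APOL6 (0.09). In likeness to PARP9, PARP14 ranked 10, PARP12 of chromosome 7 ranked 11 and DTX3L ranked 23.

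Most tested genes next to the members did not pass the test. Within 100 kb of the members, 37 other genes were tested, of which 8 rose and 2 fell, or 27.0%, against 27.5% of all genes. Without SAMD9 replicate 2, 1 fell, and under library totals 6 rose and 6 fell. In the chromosome 3 cluster, KPNA1 (log2 fold change 0.11, SE 0.07), HSPBAP1 (-0.11, SE 0.19) and SLC49A4 (-0.08, SE 0.10) flanked the members without passing the test. WDR5B-DT (0.22, SE 0.41) and EIF4BP8 (-1.18, SE 0.87) did not pass either. EIF4BP8, between DTX3L and PARP14, had 18 and 0 counts with SAMD9 and 14 and 24 with empty vector. PARP15, a family member that starts 2399 bases after the end of DTX3L on the same strand, had 17 and 68 counts with SAMD9 and 0 and 0 with empty vector. Its pooled SAMD9 counts, scaled by library size, stood 27.9-fold above a floor of 3 counts over the empty vector group, but its 2 SAMD9 libraries were unequal. That floor was set by choice and is no strict limit, since low counts were mostly even, as given below. PARP15 passed the filter on low counts only through the SAMD9 libraries, so no test of it is given, although it is among the 8 rises.

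**Figure D3:**
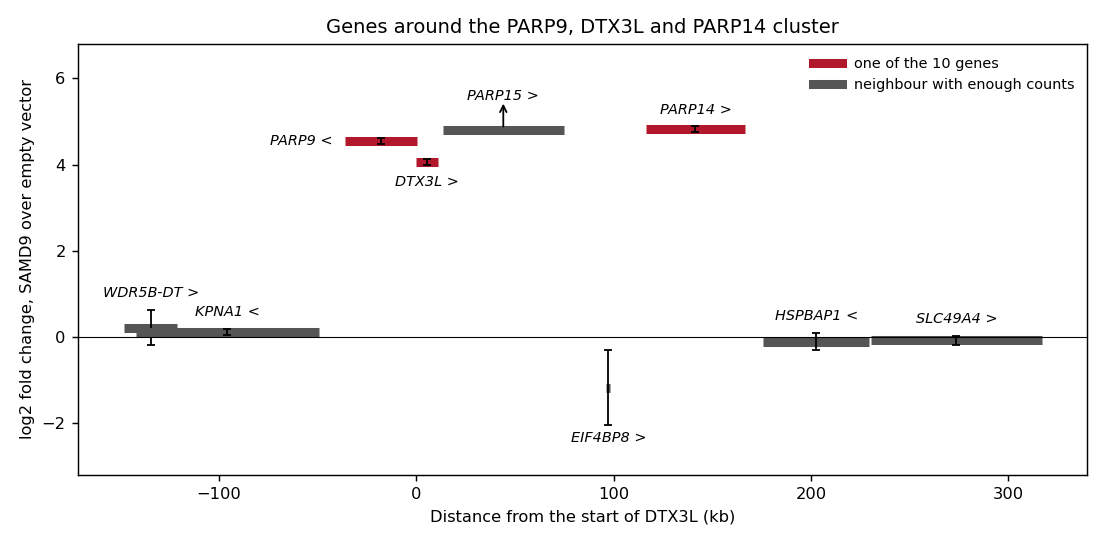
Log2 fold change (SAMD9 over empty vector) of tested genes against distance from the start of DTX3L in kb. Horizontal bars span each gene, vertical bars are ± 1 SE, and < and > give the strand. The arrow marks PARP15, drawn at 4.8 from its pooled counts against a floor of 3 counts. PARP9, DTX3L and PARP14 lie above 4, whereas KPNA1, HSPBAP1 and SLC49A4 lie near 0. WDR5B-DT lies at 0.22 (SE 0.41) and EIF4BP8 at -1.18 (SE 0.87).

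On chromosome 7, KDM7A, a histone demethylase gene 21025 bases from PARP12, rose (log2 fold change 1.18, SE 0.11, adjusted p = 2.2e-08), as did TBXAS1 (0.43, SE 0.13, adjusted p = 0.015), whose call was lost without SAMD9 replicate 1 (adjusted p = 0.20) and under library totals (0.15). RPL17P28, a ribosomal protein pseudogene, lies within the ZC3HAV1 span on the same strand and shares none of its exonic bases. It had 270 and 229 counts with SAMD9, against 5 and 14 with empty vector (4.68, SE 0.33, adjusted p = 1.1e-10). Whether these reads came from ZC3HAV1 transcripts was not tested. ZC3HAV1L, the neighbouring paralog without the catalytic domain, fell (-0.34, SE 0.11, adjusted p = 0.020), but not without SAMD9 replicate 1, SAMD9 replicate 2 or empty vector replicate 2 (adjusted p = 0.072, 0.14 and 0.20). KIAA1549 fell (-0.42, SE 0.08, adjusted p = 0.00024). Beside the other members, TEP1 near PARP2 (1.06, SE 0.08, adjusted p = 2.6e-10), GRINA across PARP10 (0.98, SE 0.06, adjusted p = 1.3e-11), APEX1 near PARP2 (0.19, SE 0.07, adjusted p = 0.037) and the pseudogene OTUD4P1 within the PARP11 span (0.96, SE 0.24, adjusted p = 0.0041) rose. The last was not called without SAMD9 replicate 1 (adjusted p = 0.071), nor APEX1 without SAMD9 replicate 2 (0.49) or under library totals (0.98).

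Across 6 lists of the surrounding pathway, 81 genes in all and 79 tested, 21 rose and 8 fell, with a median log2 fold change of 0.03. Over all tested genes, 15.3% rose and 12.2% fell, the shares to set beside each list below. Under scaling by library totals, which moved the median of all genes to -0.19, 13 rose and 25 fell. Without SAMD9 replicate 2, 3 fell.

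Of the other 8 PARP family genes, 4 rose and 2 fell (median 0.14). PARP3, which acts at DNA breaks, had 27.5 ± 0.129 CPM with SAMD9 and 12.8 ± 0.763 CPM with empty vector (SD, n = 2; log2 fold change 1.10, SE 0.11, adjusted p = 7.2e-08). PARP4, the vault particle enzyme, rose by 0.99 (SE 0.06, adjusted p = 2.7e-11) and the tankyrase gene TNKS2 by 0.40 (SE 0.07, adjusted p = 6.6e-05). The remaining rise, PARP15, passed the filter on low counts only through the SAMD9 libraries. The falls, named after their values were seen, were PARP16 of the endoplasmic reticulum (-0.59, SE 0.12, adjusted p = 0.00094) and the tankyrase TNKS (-0.30, SE 0.08, adjusted p = 0.0070), and TNKS was not called without SAMD9 replicate 2 (0.087) or empty vector replicate 1 (0.097). Without empty vector replicate 2, 4 fell, and without SAMD9 replicate 2 or empty vector replicate 1, 1 fell. Under library totals 4 fell. TIPARP (-0.12, SE 0.07, adjusted p = 0.23) and PARP6 (-0.16, SE 0.07, adjusted p = 0.13) did not pass.

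In the list of 14 erasers and readers of ADP-ribose, 2 rose and 0 fell (median -0.05), against 2 and 4 under library totals. That list also holds HPF1, which is neither an eraser nor a reader and was not called. Both genes that rose encode hydrolases that remove ADP-ribose from amino acids. ADPRS, acting on serine, had 82.2 ± 1.58 CPM with SAMD9 and 28.9 ± 2.58 CPM with empty vector (SD, n = 2, log2 fold change 1.51, SE 0.08, adjusted p = 1.7e-12). ADPRH, acting on arginine, rose by 1.05 on the log2 scale (SE 0.23, adjusted p = 0.0012). OARD1, a macrodomain hydrolase, did not pass (-0.30, SE 0.11, adjusted p = 0.055) but was called lower under library totals (-0.49, adjusted p = 0.0016), and PARG, which cuts chains, was at 0.06 (SE 0.08, adjusted p = 0.65).

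Of the 4 other deltex ligase genes, relatives of DTX3L, 0 rose and 2 fell (median -0.09). DTX2 fell by 0.35 on the log2 scale (SE 0.09, adjusted p = 0.0042) and DTX4 by 0.53 (SE 0.15, adjusted p = 0.012), but the first was not called without empty vector replicate 2 (0.10) nor the second without SAMD9 replicate 2 (0.21). DTX1 was at 1.09 (SE 0.50, adjusted p = 0.11), and was called without SAMD9 replicate 1 (0.0058) or empty vector replicate 2 (0.047).

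Among 12 cofactors of ZC3HAV1 and RNA decay enzymes, 6 rose and 0 fell (median 0.10), against 4 and 3 under library totals. TRIM25, the ubiquitin ligase that ZC3HAV1 needs for its antiviral effect, had 765 ± 6.70 CPM with SAMD9 and 139 ± 2.36 CPM with empty vector (SD, n = 2; 2.46, SE 0.06, adjusted p = 1.3e-19). The exonuclease XRN1 rose by 1.93 (SE 0.08, adjusted p = 7.1e-15), the decapping factor DCP1A by 1.56 (SE 0.07, adjusted p = 4.8e-14) and the endonuclease N4BP1 by 1.42 (SE 0.07, adjusted p = 3.4e-13). KHNYN, the nuclease paralogous to N4BP1, was at 0.29 (SE 0.07, adjusted p = 0.0032), shares 2037 exonic bases with SDR39U1 on the opposite strand, and was not called without SAMD9 replicate 1 (0.064) or under library totals (0.27). The helicase DDX17 was at 0.17 (SE 0.06, adjusted p = 0.021), but at -0.01 under library totals, and was not called without SAMD9 replicate 1 (0.10) or 2 (0.24). The exosome genes EXOSC5 (0.01, SE 0.08, adjusted p = 0.93) and EXOSC7 (-0.23, SE 0.12, adjusted p = 0.18) did not pass.

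NAD+ is the substrate of every active PARP, and 6 of 21 tested genes of its synthesis and use rose while 2 fell (median 0.14), but 3 rose and 5 fell under library totals. CD38, an NAD+ glycohydrolase of the cell surface, had 3032 and 2694 counts with SAMD9, against 139 and 137 with empty vector, and rose by 4.36 on the log2 scale (SE 0.11, adjusted p = 7.9e-19). NAMPT, the rate-limiting enzyme of NAD+ salvage, had 225 ± 10.2 CPM with SAMD9 and 76.1 ± 5.28 CPM with empty vector (SD, n = 2; 1.57, SE 0.07, adjusted p = 2.0e-14). NNMT, which methylates nicotinamide, rose by 0.76 (SE 0.08, adjusted p = 1.9e-07). The other rises were the riboside kinase NMRK1 (0.93, SE 0.30, adjusted p = 0.025), the adenylyltransferase NMNAT2 (0.36, SE 0.12, adjusted p = 0.022) and the NAD+ kinase NADK (0.21, SE 0.07, adjusted p = 0.025). Their calls were lost under library totals (0.059, 0.26 and 0.83) and without SAMD9 replicate 2, where they stood at 0.71, 0.36 and 0.22. Leaving out another single library also lost each call. That library was empty vector replicate 1 for NMRK1 (at 0.76) and SAMD9 replicate 1 for NMNAT2 (0.38) and NADK (0.21). NMNAT2 was also not called without empty vector replicate 2 (0.30). Without SAMD9 replicate 2, 3 rose and 0 fell, and without any other single library 1 fell. The falls were NAPRT (-0.37, SE 0.12, adjusted p = 0.027) and NADK2 (-0.36, SE 0.10, adjusted p = 0.012), named after their values were seen. NAPRT was not called without any 1 of the 4 libraries (0.052 to 0.15), nor NADK2 without SAMD9 replicate 2 (0.19). None of the 7 sirtuins passed the test.

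In single-strand break and base excision repair, the setting of PARP1 and PARP2, 3 of 20 genes rose and 2 fell (median -0.03), but 0 rose and 7 fell under library totals. The glycosylase NEIL3 fell by 0.71 on the log2 scale (SE 0.12, adjusted p = 5.7e-05) and the end-cleaning enzyme TDP1 by 0.40 (SE 0.11, adjusted p = 0.0066), which was not called without SAMD9 replicate 2 (0.14). The rises, UNG, APEX1 and LIG1, were 0.22, 0.19 and 0.19 on the log2 scale (SE 0.07 each, adjusted p = 0.022, 0.037 and 0.043). UNG was not called without SAMD9 replicate 1 (0.067), SAMD9 replicate 2 (0.22) or empty vector replicate 1 (0.092), nor LIG1 without the same libraries (0.27, 0.14 and 0.18). Under library totals UNG stood at 0.03 (0.76), APEX1 at 0.0025 (0.98) and LIG1 at 0.0027 (0.98). Counts of rises were 1 without SAMD9 replicate 1 or empty vector replicate 1, 0 without SAMD9 replicate 2 and 5 without empty vector replicate 2, and counts of falls were 1 without SAMD9 replicate 2 and 4 without empty vector replicate 1. The scaffold XRCC1 was at -0.13 (SE 0.09, adjusted p = 0.32).

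**Figure D4:**
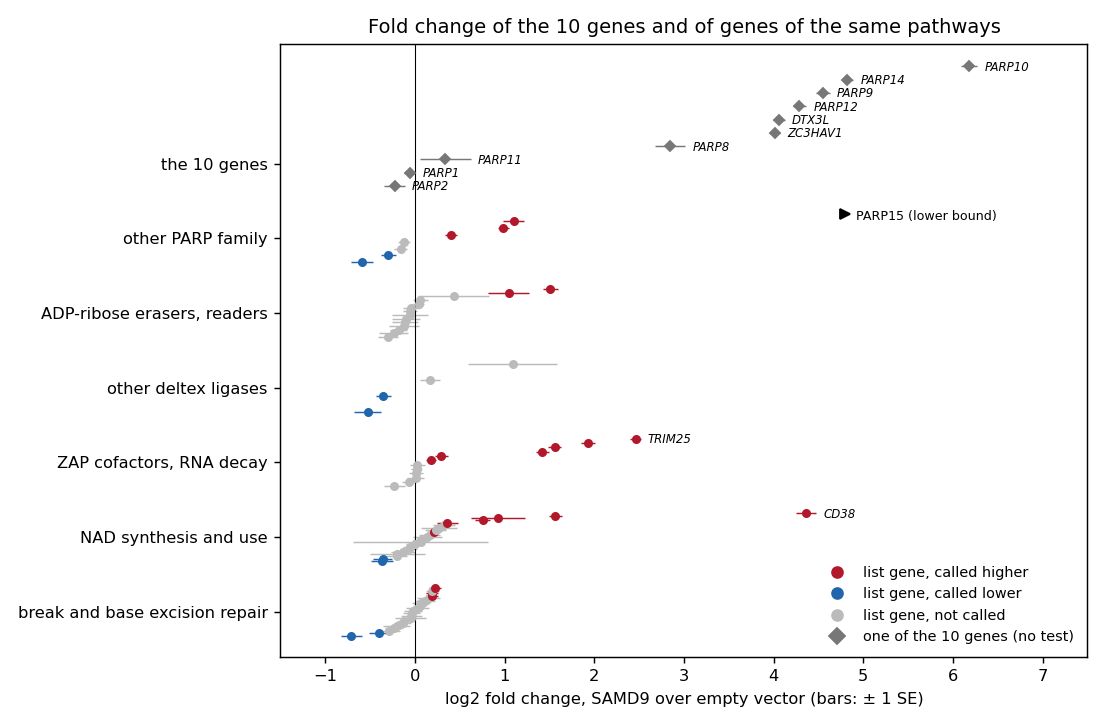
Log2 fold change, SAMD9 over empty vector, with bars of ± 1 SE, of the 10 genes (grey diamonds, no test) and of 6 pathway lists (red called higher, blue called lower, pale grey not called, at adjusted p below 0.05). PARP15 (black triangle, marked lower bound) is drawn at 4.8, from its pooled counts against a floor of 3 counts. Its fitted value rests on 0 empty vector counts and is not drawn. Of the values drawn, PARP10 at 6.18 stands farthest right. CD38 at 4.36 and TRIM25 at 2.46 lead their lists, and most repair and eraser genes lie near 0.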

How the data were processed

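RNA from 2 SAMD9 and 2 empty vector libraries was ribosome-depleted, per the labels. Raw counts per gene were deposited, with CPM scaled by the library total and RPKM per kilobase of the listed length, both computed by the authors and used here in no test. The submitters' processing notes list the aligner STAR (2.5.1a), the counter featureCounts (1.4.6-p5), bcl2fastq, Subread and build GRCh38. Neither parameters nor annotation release nor strandedness is given in the sources used here. Symbols came from a gene name table (54836 IDs) and otherwise GENCODE release 29.

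Counts were fitted in edgeR 4.0.16 (R 4.3.3): filterByExpr (minimum count 10, total 15), TMM and the quasi-likelihood F-test without covariates, Benjamini-Hochberg adjusted p below 0.05. SE is the absolute log2 fold change over the square root of F. The members and lists were chosen with earlier results of these data known. Named genes were all members, SAMD9, the 3 lowest p of each list, called list genes past 1 on the log2 scale, called neighbours, and the 3 genes nearest to PARP9 and to PARP14. Outside that rule and chosen after their values were seen were PARP16, TNKS, PARP6, TIPARP, PARG, KHNYN, DDX17, EXOSC5, EXOSC7, NMRK1, NMNAT2, NADK, NAPRT, NADK2, the sirtuins, LIG1, XRCC1, the markers and the chromosome 3 neighbours KPNA1, HSPBAP1, SLC49A4, WDR5B-DT and EIF4BP8. Among counts from 1 to 20, 71.8% to 74.1% were even, as when both mates are counted. One count was worth 0.0252 to 0.0341 CPM. The replicates differed beyond sampling noise (chi-square per degree of freedom 5.00 with SAMD9, 9.35 with empty vector). Alternatives were library totals, DESeq2 size factors, no filter, DESeq2 1.42.0, a replicate block and leaving out each library.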

Additional observations from a re-analysis of the deposited data

How the results depend on the processing

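The number of members at or above 1 on the log2 scale was 7 under every alternative tried, including leaving out each library. That count had little room to change, and the members were chosen with this contrast known. PARP8, the lowest of the 7, was never below 2.66, and PARP11, the highest of the rest, never above 0.48. Scaling by library totals gave 1974 higher and 5653 lower genes over all tested, against 3038 and 2420 with TMM. It also gave 13 higher and 25 lower pathway genes and 6 lower neighbours, and DDX17 stood at -0.014 on the log2 scale, against 0.17 with TMM. It lowered every member by about 0.19, so PARP1 stood at -0.25 and PARP2 at -0.42. Leaving out 1 library gave from 2291 to 3123 higher and from 1466 (without SAMD9 replicate 2) to 2279 lower genes, from 14 to 23 higher and from 3 to 8 lower pathway genes, and from 6 to 10 higher and from 1 to 3 lower neighbours. The replicate numbers share no stated batch, and same-numbered libraries did not deviate together (r = -0.03 across 10406 genes). With the replicate number as a block, 2914 genes were higher and 2330 lower, and only LIG1 lost its call among the named genes (adjusted p = 0.060). DESeq2 called 2640 higher and 1880 lower, and under it NMRK1, NAPRT and LIG1 lost their calls (adjusted p = 0.069, 0.066 and 0.059). The cause of these differences was not tested. With 2 libraries a group, an exact permutation test of 1 gene could not pass the threshold, so calls rest on the spread shared across genes.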
